A study of Mus musculus with 6 samples.

Results

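The interferon-stimulated effector genes described here are 49 mouse genes, chosen by name, whose products carry out or tune the antiviral response to interferon. Every probe set whose platform symbol was 1 of the 49 was taken, which gave 62 of the 22690 probe sets on the array. These 62 probe sets measured 44 genes, out of 12393 named genes that could be tested. Of the other 5 genes, Isg15, Gbp4 and Tgtp1 were covered only by probe sets that also name a second gene. Ifi44 and Xaf1 had no probe set with their symbol, and only their promoter windows were searched.

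The values come from brown adipose tissue, the depot that burns fat to make heat, of mice 3.5 months old on a mixed C57BL6 and 129 background that had been fed high fat food for 3 months. Control tissue (3 arrays) came from YY1flox/flox mice, which carry both floxed Yy1 alleles and no Cre. YY1bKO tissue (3 arrays) came from YY1flox/flox mice that also carried Ucp1Cre. Both groups thus shared the floxed alleles, the mixed background and the diet, and they differed by design in the Cre transgene. Mice on a mixed background can also differ in strain alleles, and such differences between the groups were not tested. The promoter of Ucp1, the gene for the uncoupling protein of brown adipocytes, drives this Cre, so that other cells of the tissue are not its target. Whole tissue was measured, and in such bulk samples fewer cells of a type and less RNA per cell cannot be told apart. Nothing in the labels says that the arrays of a group came from separate animals, so each p-value sets a difference against the spread among these samples, which may be purely technical.

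Interferons are secreted proteins that bind cell-surface receptors and activate Janus kinases. For type I interferons the kinases act on Stat2 among others, which joins Irf9 in a complex that binds the interferon-stimulated response element in the promoters of its target genes. Interferon gamma acts mainly through gamma-activated sites. The products of the induced genes degrade, bind or edit RNA, tag proteins with Isg15, trap virus at membranes, starve it of nucleotides, or dampen the response itself.

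Each array had a log2 intensity for each probe set, and array medians lay between 6.46 and 6.48. A probe set is called dim here when its mean over all 6 arrays does not exceed 6.48, the middle value over the whole array. In the brightest of its 4 probe sets, Yy1 itself had log2 intensities of 9.90, 9.62 and 9.95 in control replicates 1 to 3. The values were 8.38, 8.41 and 8.38 in YY1bKO replicates 1 to 3, and all 3 lay below the control values. Between control arrays, Pearson's r across genes was 0.978 to 0.996, against 0.996 between YY1bKO arrays, and control replicate 2 stood apart on the second principal component. The 7 measured brown adipocyte markers were above the dim threshold, and Elovl3 (1.14 on the log2 scale, adjusted p = 0.0396) and Ppargc1a (1.09, adjusted p = 0.00356) were called higher. The other 5, Ucp1 (-0.14) among them, were not called and lay below 0, from -0.87 in Dio2 to -0.12 in Cidea. Cox8b (-0.21) was below control on every YY1bKO array, and the median over the 7 was -0.14. The markers of highest intensity dominate the list's summed linear intensity of 54040 to 61140 in control and 54020 to 55190 in YY1bKO arrays. Skeletal muscle markers, none of them called, summed to 22030, 93180 and 17490 in control replicates 1 to 3 and to 44100, 50250 and 38450 in YY1bKO replicates 1 to 3, so that without control replicate 2 the YY1bKO sums all lay above control. The part of muscle in the effector gene values was not tested.

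Interferon-stimulated effector genes were higher in YY1bKO tissue in 20 of 44 cases and lower in 0, at an adjusted p under 0.05 in limma's moderated test. Over all genes tested 10.2% were called higher and 8.09% lower. Before adjustment, p in limma was under 0.05 for 25 members with higher and 0 with lower values. Over all 12393 genes tested these counts were 2220 higher and 1740 lower. Usp18, an inhibitor of interferon receptor signalling, rose most (4.48-fold), followed by Ifit1 (2.82-fold), which binds foreign RNA, the transcription factor gene Irf7 (2.42-fold), Rtp4 (2.42-fold), the virus tether gene Bst2 (2.2-fold) and the guanylate-binding protein gene Gbp3 (2.05-fold). These 6 were called and at least 2-fold higher, as were 1.07% of all genes tested.

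The 44 measured members had a median log2 fold change of 0.37, beside 0.04 over all genes. Their log2 fold changes ran from -0.19 to 2.16, and 39 were above 0, as were 56.9% of all genes tested. The 3 YY1bKO values lay above all 3 control values in 24 members (22.8% of all genes tested) and below them in 1 (15.7% of all genes tested). Of the 44, 14 were dim, and Irf7, Ifit1 and Eif2ak2 passed the dim threshold only through their YY1bKO values. Without control replicate 2, the array with the high muscle markers, 21 members were called higher, on arrays where the muscle sums of the groups do not overlap.

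**Figure D1:**
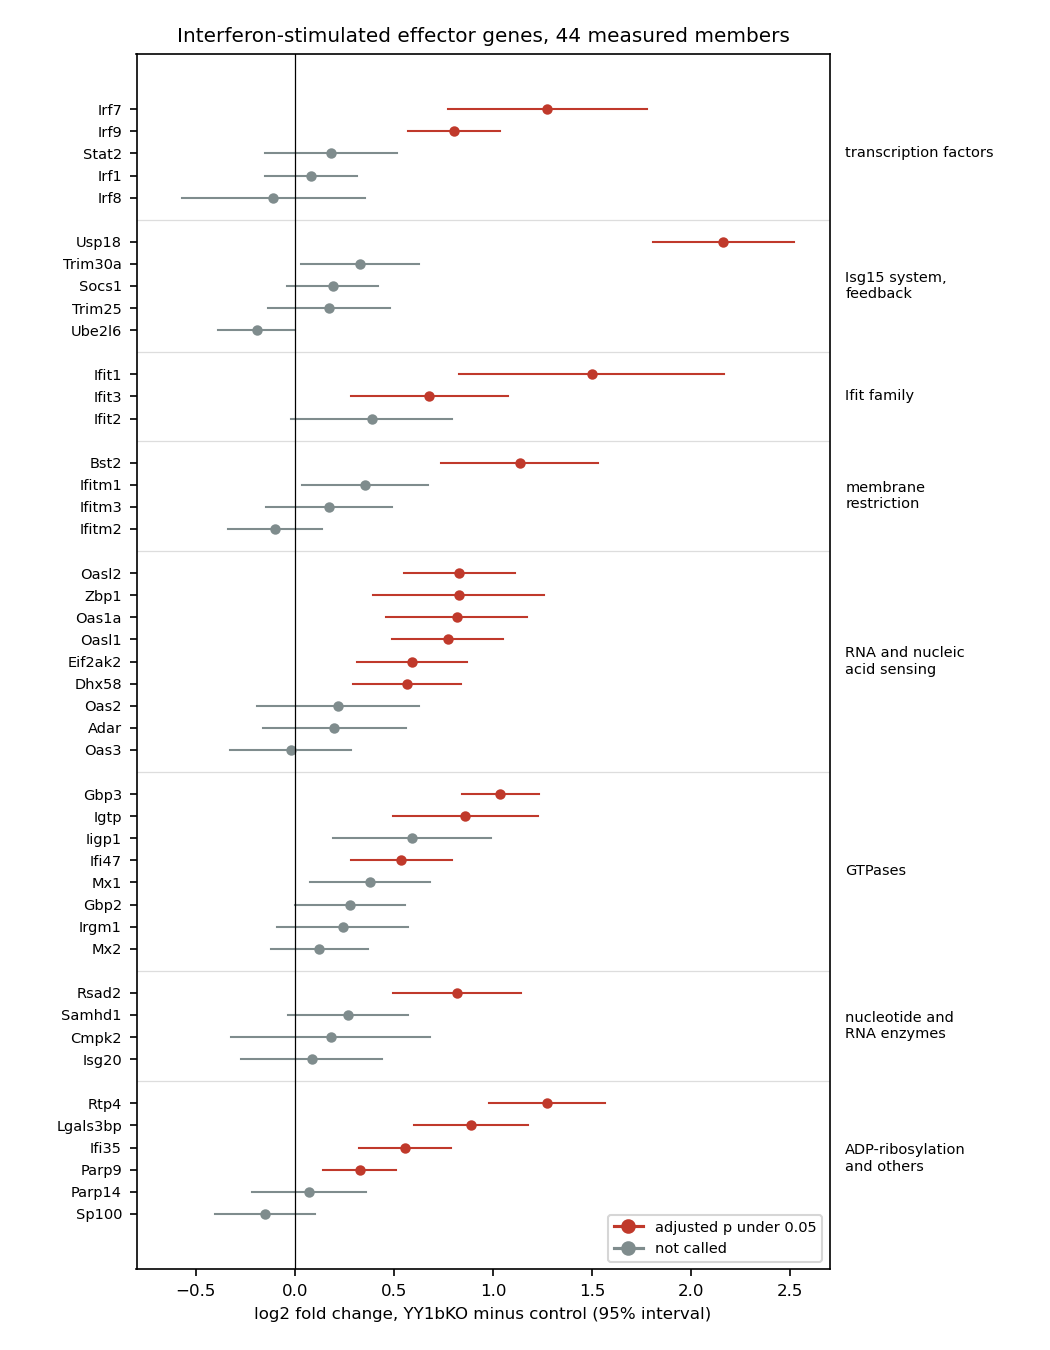
Log2 fold change (x axis, YY1bKO minus control) of each measured member, by role, with its 95% interval from limma; red marks an adjusted p under 0.05. The 20 called members all lie to the right of 0, with Usp18 at 2.16, and the 24 others lie between -0.19 and 0.59.

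Markers of other cells that the tissue can hold were measured on the same arrays. All 8 measured T cell markers were dim, 1 of them, Cd3d, was called higher (0.50 ± 0.12, SE, on the log2 scale), and the list summed to 270.1 to 290.5 in control and 323.1 to 351.2 in YY1bKO arrays on the linear scale. The 5 measured NK cell markers were dim too, with Klrd1 (0.60) and Gzma (0.58) called higher and sums of 106 to 127.5 and 132.7 to 160.6. Of the 6 dendritic cell markers, also dim, Xcr1 was called higher and Zbtb46 lower, and the sums were 229 to 260 and 204.9 to 220.4. B cell markers, 4 and all dim, had no call and sums of 131.9 to 143.4 and 143.8 to 155. No macrophage marker of 10 was called by limma, and the sums of 4444 to 7669 in control and 6525 to 7228 in YY1bKO arrays overlapped. Neutrophil markers (4, with 3 dim) had no call and overlapping sums. Endothelial markers went the other way, with Cdh5, Kdr and Tek called lower among 6 and sums of 2506 to 2822 in control and 1736 to 1963 in YY1bKO arrays. On this scale no probe set is at 0. The part of these cells in the change of the effector genes was not tested.

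Over all genes tested 10.2% were called higher, and this share applies beside the count of every role below. Each role has few genes, and differences between roles were not tested. Among the transcription factors of the response, Irf7 and Irf9 rose and the other 3 measured members were not called. Irf7, which amplifies type I interferon production, had log2 intensities of 6.10, 6.05 and 6.10 in control replicates 1 to 3 and 6.96, 7.84 and 7.27 in YY1bKO replicates 1 to 3. All 3 YY1bKO arrays stood above the controls, by 0.86 at the least, and replicate 2 was highest. The log2 fold change was 1.27 ± 0.21 (SE, adjusted p = 0.00976). For Irf9, the DNA-binding part of the complex with Stat2, the values were 7.04, 6.85 and 7.03 in control replicates 1 to 3 and 7.65, 7.89 and 7.79 in YY1bKO replicates 1 to 3, again without overlap. Its log2 fold change was 0.80 ± 0.10 (SE, adjusted p = 0.00407). Stat2, its partner, had dim values of 5.44, 5.18 and 5.09 against 5.18, 5.55 and 5.53, and the groups overlapped. The interval of its log2 fold change, -0.15 to 0.52, includes 0. Irf8, a factor of myeloid cells, gave 6.29, 5.61 and 5.87 against 5.59, 5.84 and 6.02, with overlap (log2 fold change -0.11, 95% interval -0.57 to 0.35). Irf1, which is induced mainly through gamma-activated sites, had a log2 fold change of 0.08 (95% interval -0.15 to 0.31).

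The Isg15 system attaches the ubiquitin-like protein Isg15 to other proteins and removes it. Grouped with feedback inhibitors and ubiquitin ligases, it had 5 measured genes, of which Usp18 alone was called. Usp18 removes Isg15 and also blocks the type I interferon receptor. It had log2 intensities of 6.72, 6.81 and 6.58 in control replicates 1 to 3 and 8.76, 9.18 and 8.67 in YY1bKO replicates 1 to 3. Every YY1bKO array exceeded the highest control by 1.86 log2 units or more, and the log2 fold change was 2.16 ± 0.15 (SE, adjusted p = 0.000729). A probe set that the platform assigns to Isg15 and to Gm9706 together, cannot be credited to either gene. It had dim values of 5.36, 5.49 and 5.39 against 6.44, 7.22 and 6.61, without overlap, and a log2 fold change of 1.34 ± 0.20 (SE, with an adjusted p of 0.00699 over all probe sets).

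Ube2l6, the enzyme that hands Isg15 to its targets, was the 1 member whose YY1bKO values all lay below control, with dim values of 4.83, 4.68 and 4.73 against 4.57, 4.47 and 4.61. It was not called (log2 fold change -0.19, adjusted p = 0.159). Trim30a, a mouse inhibitor of signalling from Toll-like receptors, gave 6.68, 6.51 and 6.50 against 6.65, 7.0 and 7.03 in its brighter probe set (log2 fold change 0.33, 95% interval 0.03 to 0.63). Socs1, the feedback inhibitor of Janus kinases, was dim, with 4.81, 4.68 and 4.78 against 4.95, 5.09 and 4.81, and overlapped at equal values of 4.81 (log2 fold change 0.19, 95% interval -0.04 to 0.42). Trim25, a ubiquitin ligase that helps RNA sensing, was not called (0.17, 95% interval -0.13 to 0.48).

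Ifit proteins bind foreign RNA and hinder its translation, and 2 of the 3 genes rose. Ifit1 had log2 intensities of 6.43, 6.32 and 6.37 in control replicates 1 to 3 and 7.31, 8.52 and 7.78 in YY1bKO replicates 1 to 3. The controls lay within 0.12 of each other and the YY1bKO arrays spread over 1.20, with replicate 2 highest and no overlap. Its log2 fold change was 1.5 ± 0.28 (SE, adjusted p = 0.0147), which rose to 0.0527 without YY1bKO replicate 3. Ifit3 had 6.95, 7.29 and 7.12 against 7.52, 8.11 and 7.76, without overlap, and a log2 fold change of 0.68 ± 0.17 (SE, with an adjusted p of 0.0345). Leaving out control replicate 1 raised the adjusted p to 0.108, control replicate 3 to 0.0795, YY1bKO replicate 2 to 0.0838 and YY1bKO replicate 3 to 0.1. In Ifit2 the groups overlapped, at 6.89, 7.13 and 7.29 against 7.18, 7.56 and 7.74, and its log2 fold change of 0.39 had an interval of -0.02 to 0.79.

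Of the membrane proteins that hold back virus, Bst2 rose and the 3 Ifitm genes were not called. Bst2, which tethers budding virus and is also a marker of plasmacytoid dendritic cells in mice, had 8.18, 7.75 and 7.92 in control replicates 1 to 3 and 8.88, 9.38 and 9.0 in YY1bKO replicates 1 to 3. The lowest YY1bKO array was 0.69 above the highest control, and the log2 fold change was 1.13 ± 0.17 (SE, adjusted p = 0.00688). The Ifitm proteins keep virus from fusing with endosomes. Ifitm1 was dim, at 5.10, 5.47 and 5.54 against 5.64, 5.70 and 5.84, with no overlap and a log2 fold change of 0.36 (adjusted p = 0.121). Ifitm3 had 10.57, 10.51 and 10.14 against 10.46, 10.69 and 10.60 and a log2 fold change of 0.17 (95% interval -0.15 to 0.49). Ifitm2 had 9.83, 9.51 and 9.68 against 9.51, 9.61 and 9.60 and a log2 fold change of -0.10 (95% interval -0.34 to 0.14). For both, the control and YY1bKO arrays overlapped, and the intervals exclude a rise as large as that of Bst2.

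Sensors and editors of double-stranded RNA and Z-form nucleic acid held 6 called genes of 9, all higher, beside 10.2% of all genes tested. The Oas enzymes make a short adenylate messenger that switches on an RNA-degrading enzyme, and the Oasl genes are their relatives. Oasl2 had log2 intensities of 5.04, 5.25 and 5.14 in control replicates 1 to 3 and 5.80, 6.18 and 5.94 in YY1bKO replicates 1 to 3, and Oasl1 of 6.05, 5.71 and 5.97 against 6.54, 6.78 and 6.73, both dim and without overlap. Their log2 fold changes were 0.83 ± 0.12 and 0.77 ± 0.12 (SE, adjusted p = 0.00626 and 0.00776). Oas1a, at 7.15, 7.12 and 7.24 against 7.66, 8.23 and 8.07, had a log2 fold change of 0.82 ± 0.15 (SE, with an adjusted p of 0.0135), but was not called without YY1bKO replicate 3 (adjusted p = 0.0582). The groups overlapped in Oas2 (0.22, 95% interval -0.19 to 0.62) and in Oas3 (-0.02, -0.33 to 0.28), which was dim.

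Zbp1, the sensor of Z-form nucleic acid, was dim and had 5.72, 5.77 and 5.85 against 6.39, 7.04 and 6.40, with YY1bKO replicate 2 well above the others. Its log2 fold change of 0.83 ± 0.18 (SE, adjusted p = 0.0241) was not called when control replicate 1 (0.08) or control replicate 3 (0.0532) was dropped. Eif2ak2, the kinase PKR that halts translation when it meets double-stranded RNA, gave 0.59 ± 0.12 (SE, adjusted p = 0.0171). Without control replicate 1 or YY1bKO replicates 1, 2 or 3 its adjusted p was 0.0631, 0.0657, 0.0557 and 0.0531. Dhx58, the helicase LGP2, gave 0.57 ± 0.11 in its brightest probe set (SE, adjusted p = 0.0185), which was dim. Dropping control replicate 1 raised its adjusted p to 0.0667, YY1bKO replicate 1 to 0.0663 and YY1bKO replicate 2 to 0.075. Adar, which edits adenosine in double-stranded RNA, was dim and not called (0.20, 95% interval -0.16 to 0.56).

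Among the interferon-induced GTPases, which coat or disrupt the membranes of pathogens, 3 of 8 measured genes were higher and 6 had groups without overlap. Over all genes tested 10.2% were called higher, and in 22.8% the YY1bKO values lay wholly above control. Gbp3 had log2 intensities of 7.84, 7.99 and 7.95 in control replicates 1 to 3 and 8.89, 9.04 and 8.97 in YY1bKO replicates 1 to 3, with an SD of 0.08 among the control arrays and 0.07 among the YY1bKO arrays (n = 3 each). Its log2 fold change was 1.04 ± 0.08 (SE, adjusted p = 0.00112). Igtp, an immunity-related GTPase of intracellular defence, had 7.60, 7.85 and 7.75 against 8.49, 8.92 and 8.38 and a log2 fold change of 0.86 ± 0.15 (SE, with an adjusted p of 0.0127). The YY1bKO arrays of both genes lay wholly above control. Ifi47, of the same family, had 7.35, 7.37 and 7.40 against 7.70, 8.02 and 8.02 and 0.54 ± 0.11 (SE, adjusted p = 0.0178). Dropping control replicate 1 raised the adjusted p to 0.0623, YY1bKO replicate 2 to 0.0717 and YY1bKO replicate 3 to 0.0714.

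Iigp1, another immunity-related GTPase, was above control in all 3 YY1bKO arrays, at 9.31, 8.92 and 9.18 against 9.41, 9.94 and 9.83, and missed the threshold (log2 fold change 0.59 ± 0.17, SE, adjusted p = 0.0547). Without YY1bKO replicate 1 it passed (adjusted p = 0.0362), as did the dynamin-like antiviral gene Mx1 (0.0356), which was dim with a log2 fold change of 0.38 over all arrays. Irgm1 gave 0.24 (adjusted p = 0.286, and 0.0491 without control replicate 2), Gbp2 0.28 and the dim Mx2 0.12, none called. The probe set that the platform assigns to both Tgtp2 and Tgtp1 gave 0.01 (95% interval -0.56 to 0.58), and the dim one of Gbp8 and Gbp4 gave 0.01. Neither can be credited to a single gene.

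Of the enzymes that act on nucleotides and RNA, Rsad2 rose and 3 were not called. Rsad2, or viperin, makes a nucleotide that stops viral RNA synthesis. Its values were 8.94, 8.92 and 8.93 in control replicates 1 to 3 and 9.45, 9.87 and 9.94 in YY1bKO replicates 1 to 3. The control arrays lay within 0.02 of each other and YY1bKO replicate 1 was the lowest of its group, 0.51 above the highest control. The log2 fold change was 0.82 ± 0.14 (SE, adjusted p = 0.00988). Cmpk2, a nucleotide kinase of mitochondria, had 6.87, 6.80 and 6.60 against 6.57, 7.41 and 6.84, with YY1bKO replicate 2 alone above all controls (log2 fold change 0.18, 95% interval -0.32 to 0.68). Samhd1, which breaks down the building blocks of DNA, had 7.59, 7.76 and 7.36 against 7.69, 7.88 and 7.94 and overlapping groups (log2 fold change 0.27, 95% interval -0.03 to 0.57). The exonuclease gene Isg20 had 7.02, 6.47 and 6.87 against 6.76, 6.95 and 6.91, also overlapping (log2 fold change 0.08, 95% interval -0.27 to 0.44).

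The remaining members included 4 called higher among 6 measured, beside 10.2% of all genes tested. Rtp4, which takes part in the trafficking of receptors and in antiviral defence, had 8.64, 8.72 and 8.54 in control replicates 1 to 3 and 9.89, 10.13 and 9.71 in YY1bKO replicates 1 to 3. The groups were 0.99 apart, and the log2 fold change was 1.27 ± 0.12 (SE, adjusted p = 0.00194). Lgals3bp, a secreted glycoprotein that binds galectins, had 8.45, 8.28 and 8.53 against 9.52, 9.17 and 9.23 and 0.89 ± 0.12 (SE, adjusted p = 0.00548). It differed from most called members in that YY1bKO replicate 1 was the highest. Ifi35 had 7.72, 7.81 and 7.68 against 8.30, 8.44 and 8.14 and 0.56 ± 0.10 (SE, adjusted p = 0.0123, and 0.0517 without YY1bKO replicate 1). Parp9, a partner in ADP-ribosylation, had the smallest called change, with 7.88, 7.86 and 8.0 against 8.20, 8.28 and 8.23 and 0.33 ± 0.08 (SE, adjusted p = 0.0301). No overlap was seen in either gene. Parp9 was not called when control replicate 1 (adjusted p = 0.0957) or YY1bKO replicate 1, 2 or 3 was dropped (0.0832, 0.111 and 0.0963). Parp14, an ADP-ribosyltransferase (0.07, 95% interval -0.21 to 0.36), and Sp100, a nuclear body protein (-0.15, -0.40 to 0.10), were not called.

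Of the 20 called members, 11 were called under each of the 15 alternatives that tested them: Usp18, Irf7, Irf9, Bst2, Oasl1, Oasl2, Gbp3, Igtp, Rsad2, Rtp4 and Lgals3bp. The dim Oasl1 and Oasl2 were not tested where dim probe sets were left out. The other 9 each lost the call under at least 1 alternative, and none changed sign. When 1 array was left out, 14 to 21 members were called higher and 0 lower. The lowest number was reached without control replicate 1 or YY1bKO replicate 3. Over all genes tested these fits called 547 to 1661 higher and 466 to 1439 lower.

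The 3 YY1bKO arrays were not alike in these genes. YY1bKO replicate 2 was the highest of its group in 27 of the 44 members and in 15 of the 20 called ones. YY1bKO replicate 1 was the lowest in 29 of the 44 and in 13 of the 20. Over the 20 called members the median deviation from the control mean was 0.70, 1.01 and 0.81 on the log2 scale in YY1bKO replicates 1, 2 and 3. Over the 24 others it was 0.03, 0.29 and 0.19. The median SD of a member was 0.12 within control and 0.19 within YY1bKO arrays, while over all genes it was 0.14 and 0.10. Members thus spread more among YY1bKO than among control arrays, where the median gene spread less, and the difference in spread was not tested.

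**Figure D2:**
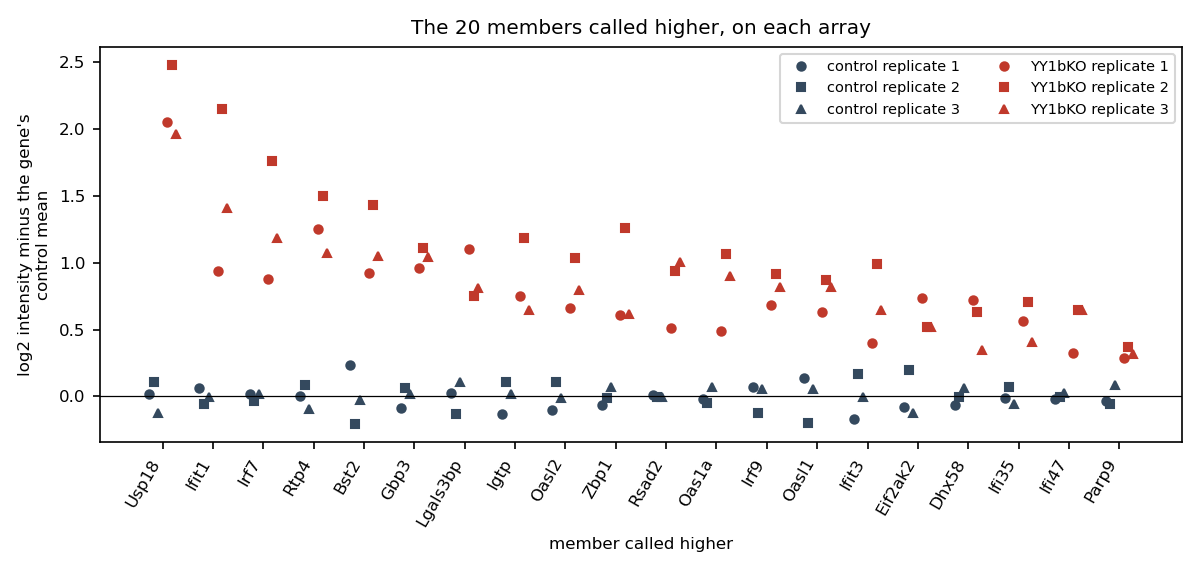
Log2 intensity of each of the 20 called members on each array, minus the control mean of the gene (y axis), with members ordered by fold change (x axis). All YY1bKO points (red) lie above the control points (dark) of their gene, and YY1bKO replicate 2 (squares) is the highest in 15 of the 20.

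At the level of single probe sets, 25 of the 62 were called higher and 0 lower, beside 8.83% and 7.16% of all probe sets. At an unadjusted p under 0.05 in limma, 0 were lower, beside 3015 of all 22626 probe sets. Several probe sets were present for 13 members. All 3 probe sets of Rsad2 were called, with log2 fold changes of 0.82, 0.82 and 0.98. In 3 members a second probe set was called higher where the one with the highest mean was not. These were Gbp2 (0.40 ± 0.10, SE, adjusted p = 0.0411), Cmpk2 (0.54 ± 0.14, adjusted p = 0.0417, dim) and Trim30a (0.75 ± 0.20, adjusted p = 0.0427, dim). Conversely, Rtp4, Eif2ak2, Dhx58 and Zbp1 each had a called probe set and a dim one that was not called. The 2 further probe sets of Dhx58 gave 0.28 and 0.16, and the further one of Eif2ak2 gave 0.10. When the probe sets of each gene were averaged, Dhx58 (adjusted p = 0.0568) and Eif2ak2 (0.0913) lost their calls, and Samhd1 (0.0269) and Trim30a (0.0314) gained one. The 4 probe sets of Samhd1 had log2 fold changes of 0.27, 0.27, 0.29 and 0.40, and 3 of the 4 had groups without overlap. The Ifit, Ifitm, Oas, Gbp and immunity-related GTPase genes form families of close relatives, and how far their probe sets bind each other's transcripts was not tested. Both probe sets of Irf8 were slightly below 0, at -0.11 and -0.03.

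**Figure D3:**
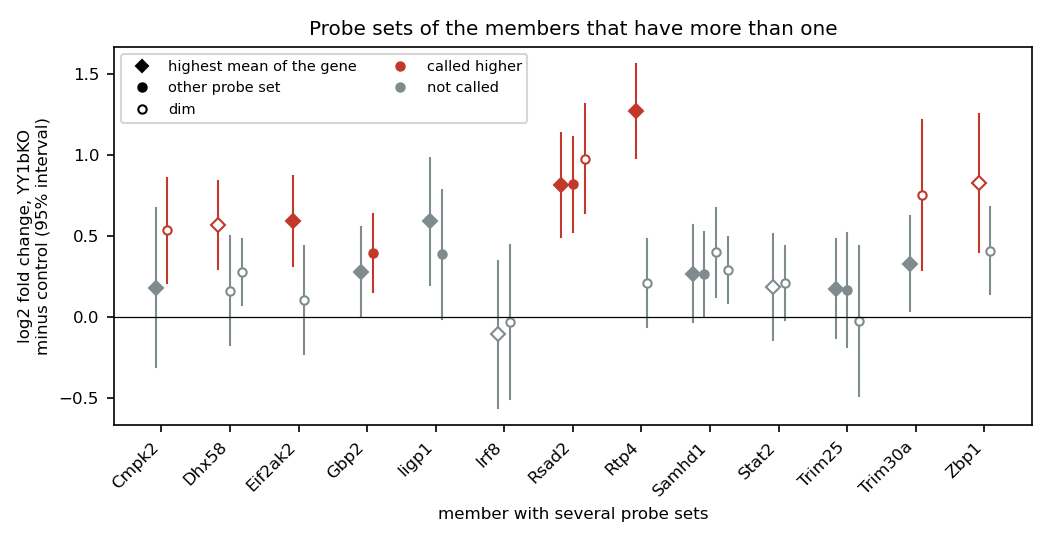
Log2 fold change (y axis, YY1bKO minus control, with the 95% interval) of each probe set of the 13 members that have several; diamonds mark the probe set with the highest mean, open symbols a dim probe set, and red a call. All 3 probe sets of Rsad2 are called, and in Gbp2, Cmpk2 and Trim30a the called probe set is not the one with the highest mean.

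Of the ligands, receptors, signal transducers and sensors that lie upstream of the effector genes, 35 were measured, of which 3 were higher and 3 lower, or 8.57% each way, near the 10.2% and 8.09% of all genes tested. Their median log2 fold change was 0.02, beside 0.04 over all genes. Among the ligands, the probe set named Ifnz had 5.25, 5.94 and 5.39 in control replicates 1 to 3 and 8.73, 8.76 and 8.91 in YY1bKO replicates 1 to 3, and it was the one called interferon gene of the list (adjusted p = 0.000479). Its YY1bKO values lay far above control and within 0.17 of each other, and it passed the dim threshold only through them. Ifnb1 (log2 fold change 0.16, 95% interval -0.07 to 0.39), Ifng (0.11, -0.07 to 0.30) and Ifna4 (0.20, -0.05 to 0.46) were dim and not called, and Ifna1, also dim, gave 0.31 (adjusted p = 0.0644).

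Of the receptor genes, Ifnar1 gave -0.08 (95% interval -0.38 to 0.22) and Ifnar2 -0.62 in its brighter probe set (adjusted p = 0.0645), while Ifngr1 and Ifngr2 gave -0.30 and -0.51, not called. Without control replicate 2, Ifnar2 (-0.84, adjusted p = 0.00263) and Ifngr1 (-0.58, adjusted p = 0.048) were called lower, and Ifnar2 was also with array weights (adjusted p = 0.00615). Il10rb, a shared receptor chain of interferon lambda and interleukin 10, was lower, at 9.03, 8.76 and 9.06 against 8.52, 8.53 and 8.64 (log2 fold change -0.39 ± 0.10, SE, adjusted p = 0.0443). That call held without control replicate 2 and was lost without any other array, with adjusted p between 0.0929 and 0.139, and it was also lost with quantile normalization (0.07). The kinase genes Jak1 (0.17) and Tyk2 (0.22) were not called.

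Among the sensors and adaptors, Ifih1, the helicase MDA5 that senses long double-stranded RNA and is itself interferon-induced, had 7.40, 7.49 and 7.44 in control replicates 1 to 3 and 8.06, 8.20 and 8.06 in YY1bKO replicates 1 to 3 and was higher (log2 fold change 0.66 ± 0.08, SE, adjusted p = 0.00369). There the groups lay 0.57 apart. The mitochondrial adaptor gene Mavs, through which it signals, was lower, at 9.78, 9.65 and 9.80 against 9.30, 9.42 and 9.30 (-0.40 ± 0.08, SE, adjusted p = 0.0194), with the call lost when control replicate 1 or 3 or YY1bKO replicate 1 or 3 was dropped (0.0695, 0.0545, 0.0777 and 0.0781). Myd88, the adaptor of most Toll-like receptors, was higher, at 7.82, 7.80 and 7.95 against 8.11, 8.24 and 8.35 (0.37 ± 0.09, SE, adjusted p = 0.0358). Without control replicate 1 or YY1bKO replicate 1, 2 or 3 its adjusted p was 0.109, 0.0576, 0.114 and 0.121. Wdfy1, an adaptor reported for Toll-like receptors 3 and 4, was lower at 8.46, 8.38 and 8.35 against 5.98, 6.04 and 7.39 (-1.93 ± 0.36, SE, adjusted p = 0.0151). YY1bKO replicate 3 lay closer to control there than the other YY1bKO arrays did. Wdfy1 was not called when control replicate 1 or YY1bKO replicate 1 or 2 was dropped (0.0541, 0.0556 and 0.0604).

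Interferon-stimulated genes outside the 49 were higher in 15 of 44 measured cases and lower in 1, beside 10.2% and 8.09% of all genes tested. Their median log2 fold change was 0.19, beside 0.04 over all genes. The chemokine genes Ccl5 (6.09, 5.81 and 5.93 against 7.63, 7.50 and 7.30) and Cxcl10 (5.08, 5.22 and 4.66 against 6.47, 6.89 and 6.70, dim) were without overlap, and in Ccl5 YY1bKO replicate 1 was the highest. Tap1, which carries peptides to MHC class I, had 6.38, 6.42 and 6.41 against 6.99, 7.10 and 7.15 in its brightest probe set. With its 4 probe sets averaged it was not called (adjusted p = 0.0839). N4bp1, an RNase reported in human cells to restrict viral RNA, gave 7.47, 7.31 and 7.45 against 7.95, 7.90 and 7.94, with a log2 fold change of 0.52 ± 0.08 (SE, with an adjusted p of 0.00694). The lower gene was Pnpt1, an RNA-degrading enzyme of mitochondria, with 9.03, 8.96 and 9.11 against 8.49, 8.54 and 8.59 (-0.49 ± 0.08, SE, adjusted p = 0.00872). Its second probe set differed widely within both groups, from 4.45 to 6.95 in control and from 4.68 to 7.11 in YY1bKO arrays, and gave 0.81.

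**Figure D4:**
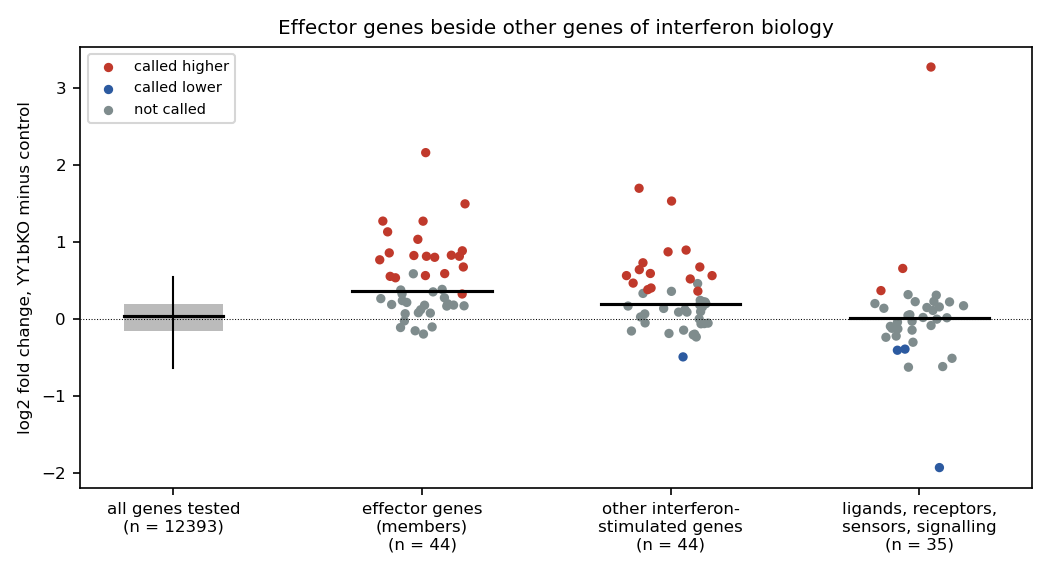
Log2 fold change (y axis, YY1bKO minus control) over all genes tested (grey box from the 25th to the 75th percentile, line from the 5th to the 95th) and for each gene of 3 lists; black bars are medians. The effector genes have a median of 0.37, other interferon-stimulated genes 0.19, and upstream genes 0.02.

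Since the promoters of many interferon-stimulated genes carry the response element, the promoter windows of the members were searched for it. RefSeq windows (GRCm38.p6) run from 250 bases before to 50 bases after each annotated start, and 38 of the 49 members had 1 or more. The letters searched were GAAA and again GAAA with 2 bases of any kind between them, on both strands. They occurred in 18 of the 38 (47.4%) and in 3.99% of all 27025 genes with a window. They occurred in 8 of 15 called members, in 8 of 19 measured members that were not called, and in 5.64% of the 1011 other called-higher genes with a window. A match is a description of these letters and shows no binding. Since the members were chosen by name as interferon-stimulated genes, their higher share of matches says nothing about the change in YY1bKO tissue. The following windows are printed 5′ to 3′ along the gene, with matches in capitals, where a run longer than 10 letters is overlapping matches. Ifit1, Oas1a, Gbp3 and Bst2 stand for called members with a match, Irgm1 for a member with matches that was not called, and Irf7 for a called member without one in its window.
Ifit1 (chr19:34640639-34640938, plus strand): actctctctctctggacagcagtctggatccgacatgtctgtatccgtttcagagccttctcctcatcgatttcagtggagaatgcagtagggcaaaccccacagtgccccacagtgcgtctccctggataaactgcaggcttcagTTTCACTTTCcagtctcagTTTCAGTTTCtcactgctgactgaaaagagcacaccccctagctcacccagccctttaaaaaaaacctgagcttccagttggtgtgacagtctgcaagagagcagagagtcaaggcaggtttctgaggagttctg
Oas1a (chr5:120907476-120907775, minus strand): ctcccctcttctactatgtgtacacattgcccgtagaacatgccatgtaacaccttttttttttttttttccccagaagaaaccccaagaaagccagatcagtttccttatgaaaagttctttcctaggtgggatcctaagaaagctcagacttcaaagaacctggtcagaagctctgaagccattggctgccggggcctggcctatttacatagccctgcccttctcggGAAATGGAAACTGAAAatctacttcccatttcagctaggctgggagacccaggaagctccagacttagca
Gbp3 (chr3:142559794-142560093, plus strand): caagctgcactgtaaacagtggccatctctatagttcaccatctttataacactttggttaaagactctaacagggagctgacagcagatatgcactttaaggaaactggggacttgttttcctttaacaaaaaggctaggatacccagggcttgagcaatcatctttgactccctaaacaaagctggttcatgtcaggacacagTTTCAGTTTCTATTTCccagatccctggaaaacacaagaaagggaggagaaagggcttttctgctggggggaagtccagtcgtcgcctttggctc
Bst2 (chr8:71537423-71537722, minus strand): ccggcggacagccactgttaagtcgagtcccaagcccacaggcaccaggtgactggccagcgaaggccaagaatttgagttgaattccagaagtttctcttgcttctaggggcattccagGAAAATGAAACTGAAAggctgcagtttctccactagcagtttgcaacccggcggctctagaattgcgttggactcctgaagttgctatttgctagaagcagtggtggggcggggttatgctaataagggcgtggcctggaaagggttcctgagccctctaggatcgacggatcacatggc
Irgm1 (chr11:48871371-48871670, minus strand): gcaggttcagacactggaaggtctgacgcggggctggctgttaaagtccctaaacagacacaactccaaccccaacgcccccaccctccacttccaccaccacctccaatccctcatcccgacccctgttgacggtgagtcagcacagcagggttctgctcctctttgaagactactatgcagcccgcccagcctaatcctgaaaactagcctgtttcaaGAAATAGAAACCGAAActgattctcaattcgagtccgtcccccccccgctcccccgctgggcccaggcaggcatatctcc
Irf7 (chr7:141266375-141266674, minus strand): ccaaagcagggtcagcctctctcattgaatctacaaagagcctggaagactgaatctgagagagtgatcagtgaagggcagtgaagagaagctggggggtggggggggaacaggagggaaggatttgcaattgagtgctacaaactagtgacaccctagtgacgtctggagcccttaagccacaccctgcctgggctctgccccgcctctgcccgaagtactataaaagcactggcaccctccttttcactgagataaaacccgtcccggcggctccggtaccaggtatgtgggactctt

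The matches of Oas1a began 20 and 14 bases before the annotated start, those of Gbp3 45 and 39 bases, those of Ifit1 104 and 85 bases, and those of Bst2 130 and 124 bases before it. In Irgm1, whose log2 fold change of 0.24 was not called, they began 30 and 24 bases before it. Matches were also present in the called genes Ifit3, Igtp, Rsad2 and Eif2ak2, and absent from the windows of Irf7, Irf9, Oasl1, Oasl2, Ifi35, Ifi47 and Lgals3bp, which were called too. The called members Usp18, Rtp4, Dhx58, Zbp1 and Parp9 had no window, so the search could not cover them. A match was present in 53.3% of the called and 42.1% of the other measured members with a window, a difference that was not tested. The gamma-activated site letters TTCNNNGAA, which read the same on both strands, occurred in 13 of the 38 members (34.2%) and 9.55% of all genes with a window, and 2 of the 14 matches overlapped a response element match. The letters GCCATNTT of the YY1 motif, on both strands, occurred in 1 of the 38 members (2.63%), Irf8, and in 6.96% of all genes with a window.

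**Figure D5:**
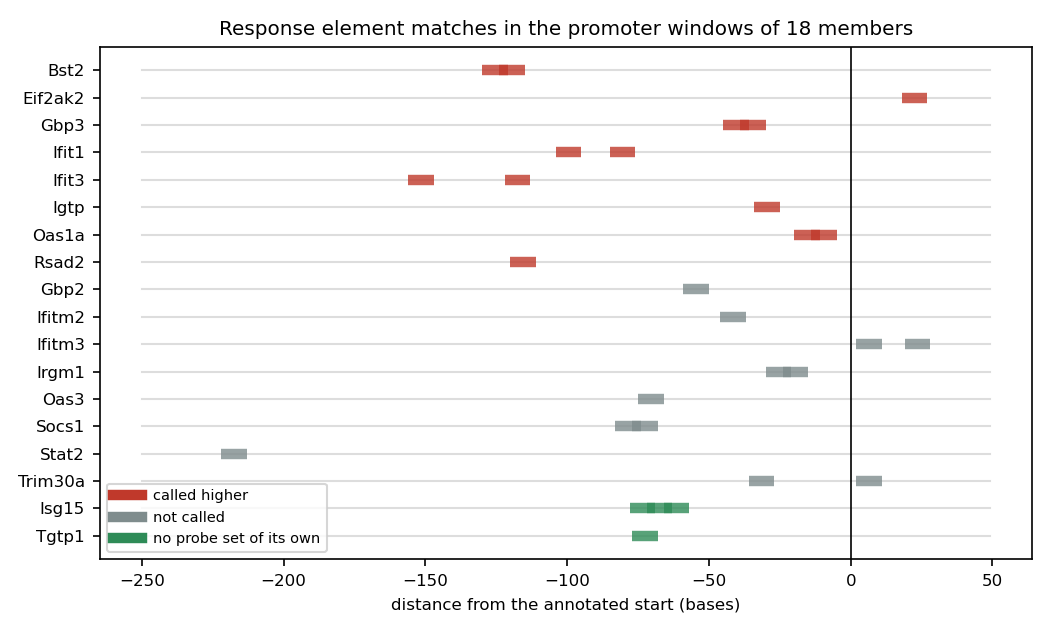
Position of each response element match (bar) relative to the annotated start (x axis, in bases, with the start at 0) in the windows of the 18 members that have one; red marks called members, grey members that were not called and green those with no probe set of their own. Matches begin between 222 bases before and 19 bases after the start, and the 4 that begin after it belong to Eif2ak2, Ifitm3 and Trim30a.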

How the data were processed

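Per the labels, total RNA of brown adipose tissue was extracted with Trizol and hybridised as biotin-labelled cRNA to Affymetrix arrays. RMA is named in the submitters' processing notes, with software not given in the sources used here. The deposited table holds linear intensities from 4.91 to 21219, taken as back-transformed RMA values. RMA equalises array distributions and pulls in changes of dim probe sets.

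Values were turned to log2 without an offset. Of 22626 probe sets left after removing 64 controls, 20380 had 1 gene symbol, 691 several and 1555 none here. Each gene was represented by its probe set with the highest mean. limma 3.58.1 (R 4.3.3; lmFit, eBayes) was fitted with group as the sole term to all 6 arrays, over all 12393 genes, and again over all probe sets. Tests were two-sided with Benjamini-Hochberg adjustment, a call is an adjusted p under 0.05, and SE and 95% intervals are moderated and, for the intervals, not adjusted for the number of genes. With 3 arrays per group, their number limits precision. The fit was tested on simulated data.

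Members, lists, motifs and printed promoters were chosen with earlier results of these data known, so no set test was run. Values on every array are given for up to 4 members per role with the largest change, for Irf7, Irf9, Stat2 and Usp18, and for up to 4 called genes per direction of the other lists. The 15 alternatives covered probe set choice, dim probe sets, normalization, an offset of 32, the prior, array weights, a replicate block, a 1.5-fold minimum and each array left out.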

Additional observations from a re-analysis of the deposited data

How the results depend on the processing

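The count of members called higher stayed within 1.5 times its value under all 15 alternatives of the gene fit, from 14 to 21, and 0 were called lower under each. Leaving out dim probe sets gave a median over the members of 0.55. The threshold is on the mean of both groups, so the change itself helps set which members are kept, Irf7, Ifit1 and Eif2ak2 among them. Leaving out 1 array at a time gave medians of 0.31 to 0.47 and 13 to 22 of the members' probe sets called higher. Same-numbered arrays deviated with correlations of -0.246, 0.112 and 0.261, and differently numbered ones with correlations from -0.37 to 0.346. With 3 arrays per group these values cannot decide whether the numbers pair the samples. With the replicate block 17 members were called, and 671 genes higher and 639 lower among all genes, beside 1 lower in the upstream list. With a fold of at least 1.5, these were 16 members, 469 higher, 562 lower and 1 lower in the upstream list, and other interferon-stimulated genes had 8 higher and 0 lower. The latter list had 0 lower in the mean over probe sets, where Pnpt1 turned to 0.16 (adjusted p = 0.834) because its second probe set gave 0.81, and 2 lower with array weights. Over single arrays left out, all genes had 547 to 1661 higher and 466 to 1439 lower, the upstream list 2 to 3 higher and 0 to 5 lower, and other interferon-stimulated genes 8 to 16 higher and 1 to 2 lower. Detection calls were not used here, and dim probe sets may lie at background.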
